A study of Mus musculus with 47 samples.

Results

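The CXC chemokines described here are 9 genes of mouse lung: Cxcl1, Cxcl2, Cxcl5 and Cxcl15, which attract neutrophils, Cxcl9 and Cxcl10, which interferon induces, and Cxcl12, Cxcl13 and Cxcl14, which are made in resting tissue. Every probe set annotated to one of these 9 genes was taken, 20 of the 49372 probe sets in the series. Several are on more than 1 array table, which gave 30 sets of values. No measured value entered the choice. On the tables used for the comparisons 12 of the probe sets are present, and 8 of them, from 5 genes, were bright enough to be tested.

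Whole lungs were compared between mice given ragweed pollen protein and mice given PBS. The ragweed mice were sensitized with the protein and alum on days 0 and 3, received the protein through the trachea on days 10 and 17, and were killed 24 h or 72 h after the last challenge. The control mice received PBS in place of ragweed. Whether they also received alum is not given in the labels used here, so effects of alum and of ragweed cannot be told apart. Each of the 4 groups (either agent, killed at 24 h or at 72 h) has 2 samples, coded 1a and 1b. Strain, sex and age are not given in the labels used here. The labels also leave unstated whether 1a and 1b came from different animals, so each p-value below reflects only how far these samples spread, and that spread may be technical.

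RNA was hybridized to Affymetrix murine U74 arrays, a set of 3 arrays, named A, B and C, that each came in a first version and in version 2. A probe set is a group of short probes that together give 1 intensity for 1 transcript. The comparisons used first-version A, version 2 B and version 2 C. The other 3 tables (version 2 A, which has no ragweed arrays of 24 h here, first-version B and first-version C) gave a second reading of the same samples. The floor, below which an intensity was not read as a level, was the 40th percentile of a table and lay at 292 on first-version A, 356 on version 2 B and 245 on version 2 C, and a probe set was tested if it lay above the floor on at least 2 of the 8 arrays. All first-version PBS arrays had been deposited on a lower scale than the ragweed arrays, with trimmed means of 225 to 376 on A against 800 for ragweed, and were brought to a common distribution. On the first-version tables, and so for Cxcl1, Cxcl12 100112_at, Cxcl13 and Cxcl14 below, deposited scale and treatment cannot be told apart. The same holds for every list gene below that was read on first-version A. Among them are Fcgbp, Tff2, Cyp2f2, Krt4, Krt13, Krtdap, Chil1, C1qa, C1qb, C1qc, Mpeg1, Cd22, Col1a1, Ramp2, Kdr, Cdh5 and Vwf. All version 2 arrays had the same scale. With so few arrays precision is limited, and the standard error (SE) of a log2 difference had a median of 0.23 for first-version A, 0.32 for version 2 B and 0.45 for version 2 C. The labelled tissue carried its markers: 13 of 14 tested alveolar type II cell genes and 12 of 15 endothelial genes lay above the floor in all 8 samples.

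CXC chemokines are small secreted proteins that bind receptors coupled to G proteins and guide leukocytes along a gradient. Cxcl1, Cxcl2, Cxcl5 and Cxcl15 carry the ELR motif before their first cysteines. Cxcl1, Cxcl2 and Cxcl5 act mainly through Cxcr2 on neutrophils, and are induced in epithelium and macrophages by NF-kB after IL-1, TNF or IL-17. Cxcl9 and Cxcl10 bind Cxcr3 on T helper 1 and NK cells, Cxcl12 binds Cxcr4 and the scavenger Ackr3, and Cxcl13 draws B cells into follicles through Cxcr5. Cxcl15, also called lungkine, is a mouse chemokine known for its expression in bronchial epithelium.

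No CXC chemokine probe set passed the test (limma, adjusted p under 0.05) in any of the 6 comparisons. Among all 25250 tested probe sets the share that passed was 0.23% for ragweed against PBS at 24 h, 0.527% at 72 h and 0.65% for the mean of both times. It was 0.0356% for the difference between the times, 0.281% for PBS at 72 h against PBS at 24 h, and 0.305% for ragweed at 72 h against ragweed at 24 h. At an unadjusted p under 0.05 the counts were 2 of 8 chemokine probe sets at 24 h, against 8.67% of all probe sets, 3 of 8 at 72 h, against 9.63%, and 5 of 8 for the mean of both times, against 11.1%. For the difference between the times it was 3 of 8, against 7.35%. Between the PBS groups it was 2 of 8, against 8.34%, and between the ragweed groups 1 of 8, against 10.6%. The 2 of 8 at 24 h are both probe sets of Cxcl15. The median log2 difference over the 8 probe sets was 0.059 at 24 h, and 4 of 8 differences were positive at 72 h. For ragweed against PBS at a single time, the smallest p-values were those of a higher Cxcl15 at 24 h, a lower Cxcl12 at 72 h, and a higher Cxcl1 at 72 h. Cxcl15 also differed between the PBS lungs of 72 h and 24 h, with an unadjusted p of 0.00353 (adjusted p = 0.261) and a higher level at 72 h.

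**Figure D1:**
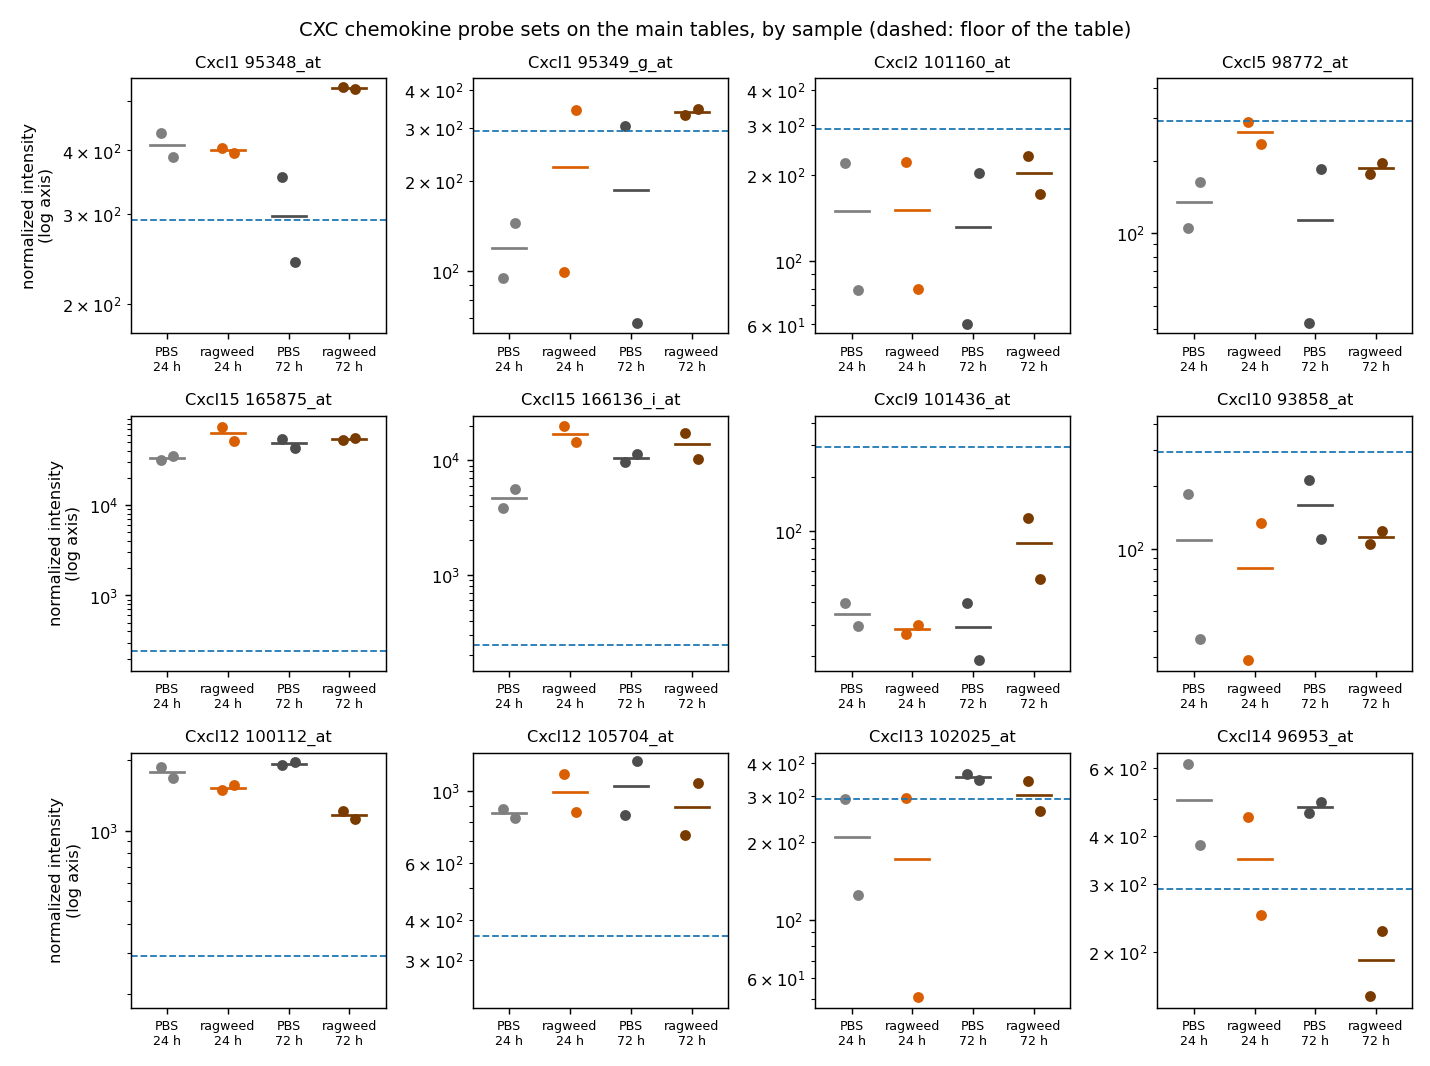
Normalized intensity (log axis) of the 12 CXC chemokine probe sets on the main tables in each of the 8 samples. Points are samples, short lines are group means, and the dashed line is the floor of the table. Both Cxcl15 panels lie far above the floor, and the Cxcl2, Cxcl5, Cxcl9 and Cxcl10 panels lie below it in all 8 samples.

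Cxcl15 was measured by 2 probe sets on version 2 C, and its lowest value, 3843, was far above the floor of 245. Its promoter is shown because Cxcl15 had the smallest p-value of the 9 genes. The sequence is RefSeq's for GRCm38.p6, chr5:90794284-90794583 on the plus strand, from 250 bases before the annotated start to 50 after it. Capitals mark a TATA box (TATAAA), which begins 27 bases before the start.

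Cxcl15: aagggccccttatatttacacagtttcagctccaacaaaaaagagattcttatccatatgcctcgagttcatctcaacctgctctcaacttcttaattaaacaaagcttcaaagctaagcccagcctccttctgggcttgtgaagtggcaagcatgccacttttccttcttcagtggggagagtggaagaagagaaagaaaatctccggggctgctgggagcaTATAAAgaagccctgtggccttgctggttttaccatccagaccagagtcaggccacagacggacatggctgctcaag

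3 short motifs were searched on both strands of the promoters: TATAAA, the kB motif GGNNTTTCC bound by NF-kB, and the core AAANNGAAA of the interferon-stimulated response element. TATAAA is in 13.6% of all 32851 promoter windows in the same table. No match to the other motifs is in the Cxcl15 window, and a match or its absence is a description of these letters alone.

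At probe set 166136_i_at the PBS lungs of 24 h read 3843 and 5568, and the ragweed lungs of 24 h read 19699 and 14512. The PBS lungs of 72 h read 9743 and 11266, and the ragweed lungs of 72 h read 17332 and 10167. Both ragweed samples of 24 h were above all 4 PBS samples, whereas the ragweed and PBS samples of 72 h overlapped. The log2 difference at 24 h was 1.87 ± 0.30 (SE, n = 2 per group), or 3.66-fold, with an unadjusted p of 1.73e-04 and a limma adjusted p of 0.0582. At 72 h it was 0.34 ± 0.30 (adjusted p = 0.776). The difference between the times was -1.53 ± 0.42 (unadjusted p = 0.00579, adjusted p = 0.485).

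At probe set 165875_at the PBS lungs of 24 h read 32157 and 34880, and the ragweed lungs of 24 h 74354 and 52242. The PBS lungs of 72 h read 54799 and 43454, and the ragweed lungs of 72 h 53221 and 56218. The PBS group of 24 h was the lowest at this probe set too, and its 2 samples lay below the other 6. Ragweed exceeded PBS by 0.90 ± 0.23 on the log2 scale at 24 h (adjusted p = 0.271) and by 0.16 ± 0.23 at 72 h (adjusted p = 0.876). In order of group mean, PBS at 24 h came first, then PBS at 72 h, ragweed at 72 h and ragweed at 24 h at both probe sets, and the samples of the last 3 groups overlapped with those of their neighbour in that order at both.

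The PBS group of 24 h sets much of the 24 h difference. PBS at 72 h exceeded PBS at 24 h by 1.18 ± 0.30 (adjusted p = 0.261) at 166136_i_at and by 0.54 ± 0.23 (adjusted p = 0.582) at 165875_at. Set against the PBS lungs of 72 h, the 24 h ragweed lungs differed by 0.69 ± 0.30 (adjusted p = 0.444) and by 0.35 ± 0.23 (adjusted p = 0.63). Leaving out 1 sample in turn, the 24 h difference at 166136_i_at ran from 1.60 to 2.14, and the adjusted p from 0.087 to 0.339.

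First-version C has 3 further Cxcl15 probe sets, all of them well above their floor of 254. At 130227_at the PBS and ragweed lungs of 24 h read 5740 and 6895 against 9097 and 11027, and those of 72 h read 8699 and 9560 against 12764 and 15972. Ragweed samples were above PBS samples at both times there, with log2 differences of 0.67 ± 0.19 at 24 h and 0.65 ± 0.19 at 72 h. At 129708_r_at the differences were 0.94 ± 0.25 and 0.55 ± 0.25, and at 129587_i_at they were 0.66 ± 0.18 and 0.73 ± 0.18. Quantile normalization gave some arrays the same value at 129587_i_at (114882 in both ragweed samples of 24 h), because the probe set took the same place on each. The adjusted p ran from 0.573 to 0.619 at 24 h, where 0.0317% of probe sets passed on these tables, and from 0.215 to 0.519 at 72 h, where 0.274% passed. At an unadjusted p under 0.05 all 3 had a difference at 24 h (6.1% of all probe sets), and 129587_i_at and 130227_at at 72 h (10% of all probe sets). The PBS arrays of this table had been deposited with trimmed means of 80.6 to 129 against 800 for ragweed, so deposited scale and treatment cannot be told apart on it.

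**Figure D2:**
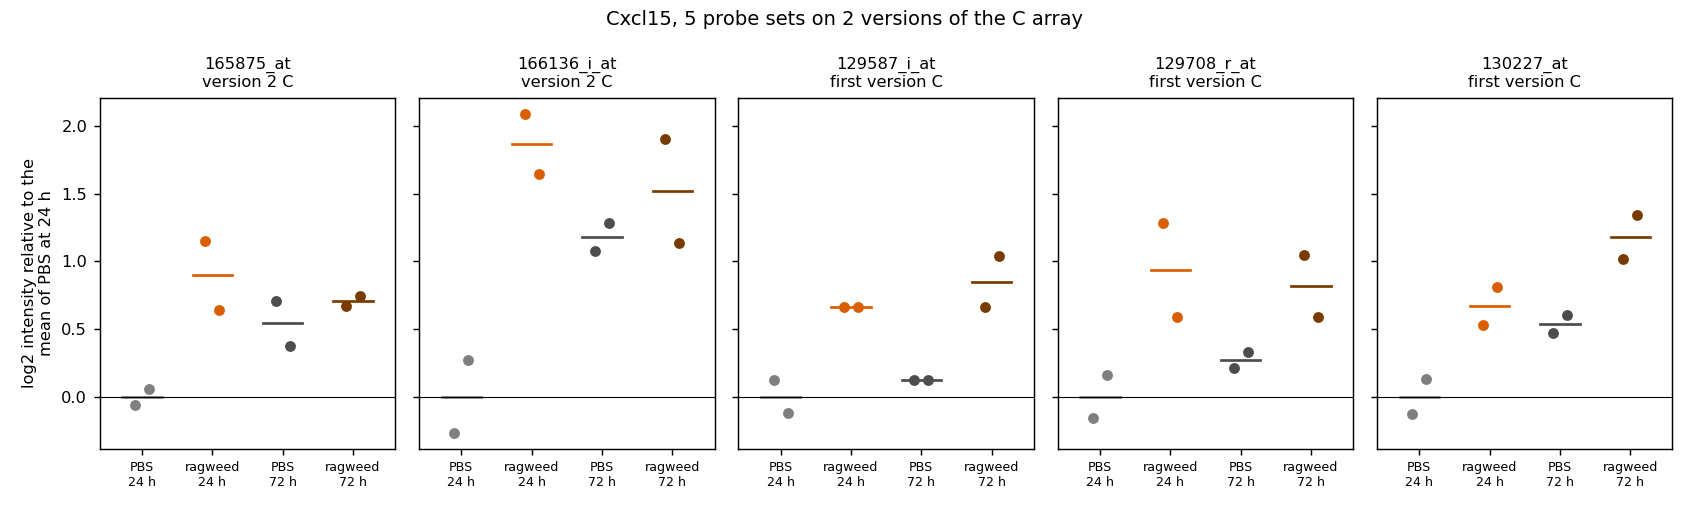
Log2 intensity of 5 Cxcl15 probe sets relative to the mean of the PBS lungs of 24 h, in each of the 8 samples. Points are samples and lines are group means on the log2 scale. The PBS samples of 24 h are lowest in all 5 panels or tied with PBS at 72 h, and the gap between ragweed and PBS at 72 h is 0.34 and 0.16 on version 2 C but 0.55 to 0.73 on first-version C.

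Secretory genes of the airway epithelium were set beside Cxcl15. Of 13 tested club and goblet cell genes, 7 rose in ragweed lungs at 24 h and none fell, where 0.366% of the 12840 genes tested passed. Among them, the mucin Muc5b rose by 3.83 ± 0.18 on the log2 scale (adjusted p = 8.36e-05), Fcgbp, an IgG Fc-binding mucus protein, by 2.89 ± 0.16 (adjusted p = 2.06e-04), Bpifb1, a secreted protein of airway fluid, by 3.41 ± 0.22 (adjusted p = 3.79e-04) and the trefoil peptide Tff2 by 2.08 ± 0.18 (adjusted p = 0.00233). At 72 h 5 of the 13 rose, where 0.654% of all genes passed. Cyp2f2, a club cell P450 enzyme named after its value was seen, was then lower in ragweed than in PBS by 0.81 ± 0.09 (adjusted p = 0.00894). Cyp2f2 read 6356 and 7071 in PBS lungs and 10913 and 10163 in ragweed lungs of 24 h. At 72 h it read 21322 and 21547 in PBS lungs and 12429 and 12033 in ragweed lungs. Between the PBS groups 5 of the 13 were higher at 72 h, among them Muc5b by 1.97 ± 0.18 (adjusted p = 0.00542), where 0.405% of genes passed. The summed intensity of the 13 genes was 59916 and 64244 in the PBS lungs of 24 h, 123900 to 132312 in those of 72 h, and 138902 to 161959 in the 4 ragweed lungs. Ordered by group mean, that sum ran as Cxcl15 did on version 2 C, but much of it is the single gene Scgb1a1. Scgb1a1 read 30618.5 and 32340 in the PBS lungs of 24 h and 71369 to 80301 in the other samples. The median log2 intensity of the 13 genes ran otherwise. It was higher in ragweed at 72 h (11.58 and 11.76) than in ragweed at 24 h (11.08 and 11.22) and lowest in PBS (9.10 to 9.64). In bulk tissue a change in the number of cells of a type and a change in RNA per cell cannot be told apart, and the part of either in the Cxcl15 values was not tested.

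Markers of alveolar type II cells did not pass in either ragweed comparison (0 of 14 by limma, where 0.366% of all genes passed at 24 h and 0.654% at 72 h). At an unadjusted p under 0.05 there were 3 of 14 at each time, against 9.06% of all genes at 24 h and 10.6% at 72 h. The same shares of all genes stand behind each list count of 24 h and 72 h that follows. Those with the smallest p-values over the ragweed comparisons were the desaturase Scd1, with a log2 difference of 0.77 ± 0.13 between the ragweed times (adjusted p = 0.0812), and lysozyme Lyz2, at -0.55 ± 0.11 for ragweed against PBS over both times (adjusted p = 0.0917). Their summed intensity ran from 256673 to 303251 in the PBS lungs and from 246381 to 286480 in the ragweed lungs. Genes of squamous epithelium stood apart in the PBS lungs of 72 h, where the sum over 9 genes was 42278 and 43957, against 15505 to 20834 in the other 6 samples. Of these 9 genes 4 fell at 72 h in ragweed against PBS, where 0.654% of all genes passed. The keratin Krt4 fell by 1.47 ± 0.13 (adjusted p = 0.00357) and Krt13 fell by 1.40 ± 0.13 (adjusted p = 0.00399), the keratinocyte protein Krtdap fell by 1.09 ± 0.13 (adjusted p = 0.0142), and suprabasin, Sbsn, fell by 1.62 ± 0.27 (adjusted p = 0.0247). The part of this difference between the PBS groups in the 72 h values of the chemokines was not tested.

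Cxcl1, also known as KC, is a neutrophil chemokine of epithelium and macrophages. At 95348_at on first-version A the PBS lungs of 24 h read 433 and 388 and the ragweed lungs of 24 h 405 and 396. At 72 h the PBS lungs read 354 and 242 and the ragweed lungs 532 and 527. The 2 ragweed samples of 72 h were the highest of the 8, and the groups of 24 h overlapped. The floored log2 difference was -0.03 ± 0.20 at 24 h (adjusted p = 1) and 0.72 ± 0.20 at 72 h (1.65-fold, unadjusted p = 0.00627, adjusted p = 0.254). The difference between the times was 0.75 ± 0.28 (unadjusted p = 0.0266, adjusted p = 0.621). Against the PBS lungs of 24 h, the 72 h ragweed lungs differed by 0.37 ± 0.20 (adjusted p = 0.548).

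On version 2 A, where all arrays had been deposited on the same scale, 95348_at read 356 and 330 in the PBS lungs of 24 h, 381 and 305 in those of 72 h, and 500.2 and 728 in the 72 h ragweed lungs. The ragweed samples of 72 h were again the highest, with a log2 difference of 0.83 ± 0.26 at 72 h (unadjusted p = 0.0149, adjusted p = 0.36). The ratio of the 3' to the 5' actin control on this table was 0.189 and 0.198 for PBS lungs of 72 h, 0.535 and 0.437 for those of 24 h, and 0.801 and 0.578 for the ragweed lungs of 72 h, whereas it was 0.798 to 0.968 on first-version A. The part of that ratio in the version 2 A differences was not tested. The other Cxcl1 probe set, 95349_g_at, was above the floor in 4 of 8 samples on first-version A (345 at most) and in none on version 2 A.

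The Cxcl1 promoter is printed to show its paired kB motifs. It lies at chr5:90890995-90891294 on the plus strand of GRCm38.p6 (RefSeq). Capitals mark a kB match on the minus strand that begins 89 bases before the start and one on the plus strand that begins 70 bases before it.

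Cxcl1: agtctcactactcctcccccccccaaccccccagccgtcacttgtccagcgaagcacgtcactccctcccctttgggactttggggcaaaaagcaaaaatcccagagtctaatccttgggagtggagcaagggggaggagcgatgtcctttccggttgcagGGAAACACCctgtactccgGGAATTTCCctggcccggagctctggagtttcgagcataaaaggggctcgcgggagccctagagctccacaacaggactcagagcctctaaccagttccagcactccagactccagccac

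A kB match is in 5.82% of all promoter windows. Cxcl2, whose window lies on the same chromosome at chr5:90903649-90903948 on the plus strand, also has 2 kB matches, at 96 and 77 bases before the start. Cxcl9 has 2 and Cxcl10 has 1.

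Cxcl2, or MIP-2, is induced in macrophages together with Cxcl1. Its probe set 101160_at lay between 60.4 and 235 on first-version A, below the floor in all 8 samples, and between 10.5 and 122 on version 2 A. Cxcl5, known in lung as a chemokine of alveolar epithelium, was read by 98772_at on first-version A. PBS lungs gave 105 and 163 (24 h) and 42.3 and 185 (72 h), and ragweed lungs 289 and 235 (24 h) and 176 and 195 (72 h). All 8 values were below the floor of 292, so they are bounds and carry no comparison. On version 2 A, with a floor of 238, Cxcl5 read 89.2, 88.0, 98.8 and 114 in the 4 PBS lungs and 336 and 291 in the ragweed lungs of 72 h. Only the ragweed samples of 72 h were above that floor. Their mean on the log2 scale was 1.31 times the floor, so they exceeded the PBS lungs of 72 h at least 1.31-fold. No test is given, since the probe set passed the filter through these 2 samples alone.

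Signals that induce these neutrophil chemokines did not pass either. Of 14 tested inducers and NF-kB feedback genes none was called at 24 h or 72 h by limma, and 1 and 2 of them had an unadjusted p under 0.05. The median log2 difference was 0.22 at 24 h and 0.0061 at 72 h, against -0.0011 and 0 over all genes. The smallest p-values over the ragweed comparisons were those of Zfp36, which destabilizes chemokine mRNA, at -1.49 ± 0.53 between the ragweed times (adjusted p = 0.361), and Nfkbiz, an NF-kB cofactor, at 0.99 ± 0.39 for the difference between the times (adjusted p = 0.64). Zfp36 read 275, below the floor, and 1192 in the ragweed lungs of 72 h, against 1559 and 1766 in those of 24 h. For Nfkbiz 1 ragweed lung of 24 h (264) was below the floor. The cytokine genes Il17a, Tnf and Il6 were below the floor in all 8 samples. The highest of those values were 244 for Il17a, 177 for Tnf and 199.7 for Il6. Il1b was above the floor of 292 in every ragweed lung, at 342 and 295 (24 h) and 626 and 371 (72 h). In PBS lungs it read 89.4 and 232 (24 h) and 226 and 363 (72 h), with only the last above the floor. Il1a read 395 and 393 in PBS lungs and 527 and 412 in ragweed lungs of 24 h. Its 72 h values went the other way, with 412 and 501 in PBS lungs and 361 and 408 in ragweed lungs.

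Neutrophil markers were read as the cells that these chemokines attract. Of 9 tested markers Chil1, a chitinase-like protein that macrophages and epithelium also make, rose at 24 h by 1.41 ± 0.15 (adjusted p = 0.0104) and at 72 h by 1.51 ± 0.15 (adjusted p = 0.00577). Lactoferrin (Ltf), a granule protein that glands also secrete, read 305 and 442 in PBS at 24 h and between 1003 and 1379 in the other 6 samples, with a log2 difference of 1.56 ± 0.25 at 24 h (adjusted p = 0.0721). The calprotectin subunit S100a8 read 1593 and 1286 in PBS lungs and 1723 and 1698 in ragweed lungs of 24 h, and 1670.1 and 2140.2 against 1196 and 1599 at 72 h. Its partner S100a9 read 672 and 1023 against 934 and 782 at 24 h, and 1609 and 1912 against 994 and 956 at 72 h, with log2 differences of 0.04 ± 0.24 (adjusted p = 1) and -0.85 ± 0.24 (adjusted p = 0.28). At 72 h both subunits were thus lower in each ragweed lung than in each PBS lung, and neither passed. Elane went the other way at 72 h, with 915 and 804 in PBS lungs and 1055 and 1047 in ragweed lungs. Of the 9 tested markers 5 had a positive difference at 72 h, and the median log2 difference was 0.12. Mmp9, a granule protease, was below the floor in 6 of 8 samples. The defining markers Ly6g, Ngp, Mmp8 and Stfa1 were below the floor in all 8 samples. The sum over the other 8 markers, without Chil1, was 7021 and 7149 in PBS lungs and 10299 and 7574 in ragweed lungs of 24 h, so both ragweed lungs were higher. Much of that gap lies in Csf3r and Ltf, which are part of the sum. Csf3r read 1773 and 2585 in PBS lungs and 4609 and 1805 in ragweed lungs of 24 h. Ltf read 305 and 442 against 1105 and 1055. At 72 h the sum over the 8 markers was 9521 and 8894 in PBS lungs and 8287 and 8118 in ragweed lungs, so both ragweed lungs were lower. S100a8 and S100a9, both lower there, are part of this sum.

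Cxcl9 and Cxcl10 were below the floor in every sample of both A tables. Cxcl9, which interferon gamma induces in macrophages, lay between 19.1 and 118 at 101436_at on first-version A and between 12.1 and 79.9 on version 2 A. Cxcl10, also induced by type I interferon, lay between 29.1 and 215 at 93858_at on first-version A and between 17.3 and 132 on version 2 A. The highest Cxcl9 value, 118, was a ragweed sample of 72 h, and the highest Cxcl10 value, 215, a PBS sample of 72 h. Such values bound the level from above and give no order of the groups.

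The Cxcl10 promoter is given because it holds both an interferon and a kB match. It is at chr5:92348840-92349139 on the minus strand of GRCm38.p6 (RefSeq). Capitals mark a match to the interferon-stimulated core 212 bases before the start and a kB match on the minus strand of the window 158 bases before it.

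Cxcl10: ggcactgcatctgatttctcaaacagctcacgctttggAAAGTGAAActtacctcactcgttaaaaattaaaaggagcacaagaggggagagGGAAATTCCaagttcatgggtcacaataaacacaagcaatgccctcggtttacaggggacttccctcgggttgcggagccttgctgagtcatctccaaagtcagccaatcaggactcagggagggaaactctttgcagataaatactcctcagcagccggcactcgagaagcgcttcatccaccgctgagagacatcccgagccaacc

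The interferon core is in 10.6% of all promoter windows. Among the 8 chemokines with a promoter in the table, Cxcl14 has the other match to the core, 171 bases before its start. Ifng, the gene of interferon gamma, was below the floor in all 8 samples, with a highest value of 44.2. Of 25 tested interferon-induced genes none was called at 24 h or 72 h by limma, with 3 and 5 at an unadjusted p under 0.05. Their median log2 difference was 0.06 at 24 h and 0.19 at 72 h. The peptide transporter Tap1 differed by 0.59 ± 0.18 at 24 h and 0.69 ± 0.18 at 72 h (adjusted p = 0.358 and 0.216), and the GTPase Iigp1 by 0.84 ± 0.18 at 24 h (adjusted p = 0.195). Of 9 tested T and NK cell markers none was called at either time by limma (3 and 0 at an unadjusted p under 0.05). Of these, Cd3d of the T cell receptor complex had a log2 difference of -1.94 ± 0.56 at 24 h (adjusted p = 0.326) and granzyme Gzma one of 0.60 ± 0.17 over both times (adjusted p = 0.26).

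Cxcl12, or SDF-1, is made by stromal and endothelial cells and retains leukocytes and progenitors through Cxcr4. At 100112_at on first-version A the PBS lungs of 24 h read 1874 and 1682 and those of 72 h 1909 and 1961. The ragweed lungs of 24 h read 1488 and 1573 and those of 72 h 1211 and 1125. All 4 ragweed samples were below all 4 PBS samples, and the ragweed samples of 72 h were below those of 24 h. The log2 difference was -0.22 ± 0.14 at 24 h (unadjusted p = 0.155, adjusted p = 0.744) and -0.73 ± 0.14 at 72 h (1.66-fold, unadjusted p = 6.66e-04, adjusted p = 0.088). Over both times it was -0.47 ± 0.10 (unadjusted p = 0.00117, adjusted p = 0.099). The difference between the times was -0.51 ± 0.19 (unadjusted p = 0.0288, adjusted p = 0.629). Among the group means PBS at 72 h was highest, then PBS at 24 h, ragweed at 24 h and ragweed at 72 h, and the ranges of these groups did not overlap with their neighbours in that order.

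On version 2 A the same probe set read 2099 and 1768 in the earlier PBS lungs, 2213 and 1902 in the later ones, and 1263 and 1786 in the ragweed lungs of 72 h. Both ragweed samples lay below both PBS samples of 72 h there, and 1 of them lay above the lower PBS sample of 24 h. The log2 difference at 72 h was -0.45 ± 0.20 (unadjusted p = 0.0567, adjusted p = 0.52).

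The other Cxcl12 probe sets gave smaller differences at 72 h. At 105704_at on version 2 B the 8 samples ran from 729 to 1233, with all groups overlapping and log2 differences of 0.21 ± 0.37 at 24 h and -0.22 ± 0.37 at 72 h. First-version B read the same probe set from 1393 to 2673, with differences of -0.33 ± 0.27 and 0.06 ± 0.27, so its sign at each time turned with the array version. On version 2 A, 160511_at differed by 0.008 ± 0.26 and 162234_f_at by -0.30 ± 0.27 at 72 h. Of the 3 that are only on first-version A, 100110_at and 100242_f_at were below the floor of 265 for that whole table in all 8 samples. The remaining one, 100111_g_at, ran from 63.5 to 662, with log2 differences of 0.35 ± 0.48 and -0.19 ± 0.48. The lower value in ragweed lungs at 72 h was thus clear of overlap with PBS of 72 h at 1 Cxcl12 probe set, on both array versions. Only on first-version A was it also clear of the PBS lungs of 24 h.

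**Figure D3:**
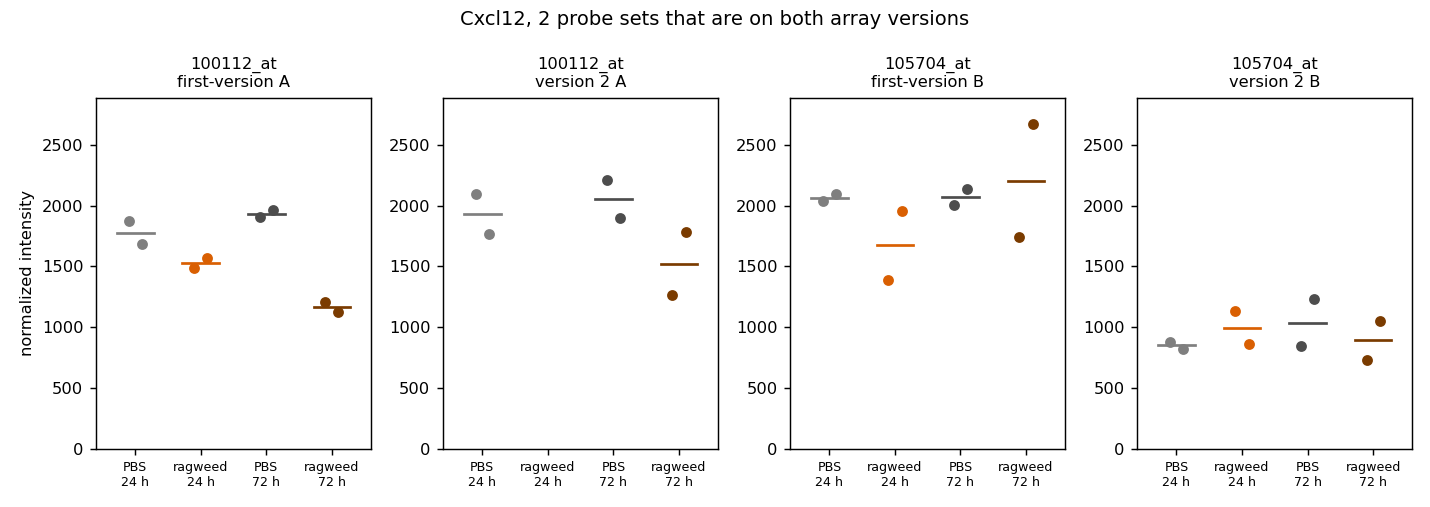
Normalized intensity of the 2 Cxcl12 probe sets that are on both array versions, by sample. Points are samples and lines are group means, and version 2 A has no ragweed arrays of 24 h. At 100112_at the ragweed samples of 72 h read 1211 and 1125 on first-version A and 1263 and 1786 on version 2 A, while at 105704_at the ragweed and PBS samples of 72 h overlap on both versions.

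The Cxcl12 promoter is shown as the contrast to those above, since none of the motifs searched has a match in it. It is at chr6:117168285-117168584 on the plus strand of GRCm38.p6 (RefSeq), and nothing in it is in capitals.

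Cxcl12: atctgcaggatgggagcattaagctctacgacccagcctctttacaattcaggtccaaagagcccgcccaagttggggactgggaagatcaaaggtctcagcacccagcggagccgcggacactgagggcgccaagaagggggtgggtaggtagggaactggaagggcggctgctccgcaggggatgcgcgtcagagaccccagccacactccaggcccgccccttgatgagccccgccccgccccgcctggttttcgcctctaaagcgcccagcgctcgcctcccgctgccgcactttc

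Genes of cells that make Cxcl12 were read as well. Of 14 tested fibroblast and stromal genes, collagen Col1a1 fell at 72 h by 0.64 ± 0.10 (adjusted p = 0.0339) and none was called at 24 h by limma. At an unadjusted p under 0.05 there were 4 of 14 at 24 h and 3 of 14 at 72 h. Elastin (Eln) was higher in ragweed at 72 h than at 24 h, by 0.77 ± 0.11 (adjusted p = 0.0478). Among 15 endothelial genes Ramp2, part of the adrenomedullin receptor, fell at 72 h by 0.65 ± 0.10 (adjusted p = 0.0315). None of the 15 was called at 24 h by limma, and 5 of 15 had an unadjusted p under 0.05 at each time. Over both times, where 0.919% of all genes passed, 1 of the 15 endothelial genes rose and 2 fell. The VEGF receptor Kdr fell by 0.78 ± 0.13 (adjusted p = 0.0464) and the cadherin Cdh5 by 0.55 ± 0.09 (adjusted p = 0.0353). Von Willebrand factor (Vwf) rose by 0.48 ± 0.08 (adjusted p = 0.0438). Summed intensity of the fibroblast genes was 55942 to 61006 in PBS and 46480 to 53632 in ragweed. That of the endothelial genes was 57359 to 62190 in PBS and 52625 to 56843 in ragweed, so in both lists the 4 ragweed lungs were below the 4 PBS lungs in the sum. The medians over the genes did not follow at 72 h. The median log2 intensity of the fibroblast genes was 12.09 and 12.05 in the ragweed lungs of 72 h, above the 11.96 to 12.00 of the PBS lungs, and that of the endothelial genes was 10.96 and 11.25, the first below and the second within the PBS range of 11.04 to 11.28. Their part in the Cxcl12 values was not tested.

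Cxcl13, the follicular chemokine for B cells, was near the floor. At 102025_at on first-version A it ran from 51.1 to 363, with 4 of 8 samples above the floor. Both PBS samples of 72 h (363 and 345) were above it, and the log2 difference of PBS at 72 h against PBS at 24 h was at least 0.28 ± 0.13 (adjusted p = 0.637). Ragweed differed from PBS by 0.0016 ± 0.13 at 24 h and by -0.16 ± 0.13 at 72 h (adjusted p = 1 and 0.756). On version 2 A the range was 152 to 427 and the difference at 72 h was -0.47 ± 0.25 (adjusted p = 0.613).

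B cell and follicle genes were set beside it. Of 18 tested, Cd22, a B cell lectin, rose at 72 h by 1.38 ± 0.20 (adjusted p = 0.0289), and none was called at 24 h by limma (3 at an unadjusted p under 0.05). For Cd22 1 PBS lung of 72 h (89.7) was below the floor of 292, so its difference is partly set by the floor. Its 24 h values ran the other way, with 436 and 368 in PBS lungs and 140 and 255, both below the floor, in ragweed lungs. Tnfsf13b, the B cell survival factor BAFF, differed by 1.38 ± 0.29 at 24 h (adjusted p = 0.113). Over the 18 genes the median log2 difference was -0.0025 at 24 h, with 6 positive, and 0.21 at 72 h, with 14 positive. By limma, 3 of the 18 had an unadjusted p under 0.05 at 72 h. Cd79a went the other way at 72 h, with 2341.5 and 2205 in PBS lungs and 1535 and 1555 in ragweed lungs. Cxcr5, the receptor of Cxcl13, was above the floor in 1 of 8 samples, at 435 in a ragweed lung of 72 h.

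Cxcl14 is a chemokine of epithelium whose receptor is less settled. At 96953_at on first-version A the PBS lungs read 614 and 380 at 24 h and 460.2 and 489 at 72 h. The ragweed lungs read 447 and 249 at 24 h and 153 and 227 at 72 h. Both ragweed samples of 72 h were below the floor of 292 and below all PBS samples, and the groups of 24 h overlapped. The 72 h difference on the log2 scale was at least 0.70 ± 0.29 toward lower values in ragweed (unadjusted p = 0.0396, adjusted p = 0.492). Over both times the fitted difference was -0.56 ± 0.20 (adjusted p = 0.365). On version 2 A, the PBS lungs read 520 and 425 (24 h) and 617 and 254 (72 h), and the ragweed lungs of 72 h read 253 and 180.2, with a difference of -0.69 ± 0.39 (adjusted p = 0.638). The lower PBS sample of 72 h was there close to the higher ragweed sample.

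**Figure D4:**
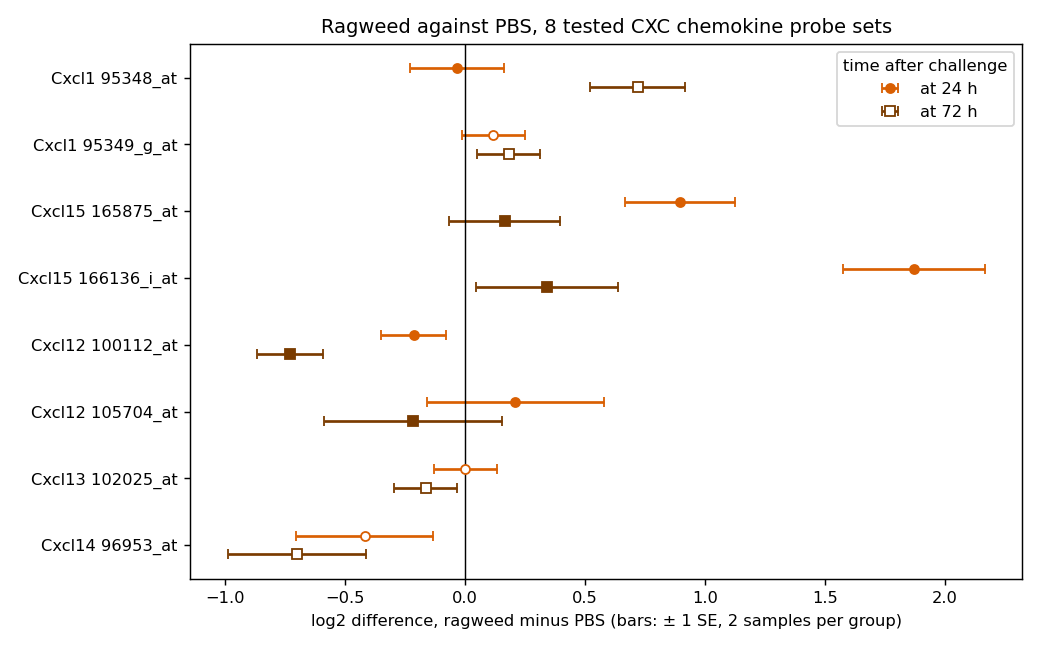
Log2 difference between ragweed and PBS (x axis) for the 8 tested CXC chemokine probe sets (rows) at 24 h (circles) and 72 h (squares). Bars are 1 SE on each side, and open symbols mark comparisons in which at least 1 sample lay at the floor. The 24 h value of Cxcl15 166136_i_at, 1.87, is the farthest from 0, and the 72 h values of Cxcl12 100112_at and Cxcl1 95348_at, -0.73 and 0.72, lie on opposite sides.

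Of the receptors, 6 of 9 listed genes are on the main tables and 3 were tested, and none was called by limma (1 of 3 at an unadjusted p under 0.05 at 72 h). Cxcr4 read 280.3 and 438 (24 h) and 708 and 557 (72 h) in PBS lungs, and 538 and 412 (24 h) and 509 and 578 (72 h) in ragweed lungs, with groups that overlap between treatments. Its log2 differences were 0.40 ± 0.29 at 24 h and -0.21 ± 0.29 at 72 h. Ackr3, which takes up Cxcl12, was above the floor in 3 samples, both ragweed lungs of 72 h (409 and 456) and 1 PBS lung of 72 h (369), with a difference of 0.40 ± 0.16 at 72 h (unadjusted p = 0.0366, adjusted p = 0.474). Cxcr3 differed by 0.05 ± 0.40 and 0.23 ± 0.40. The neutrophil receptor Cxcr2 was above the floor in 1 sample, at 313 in a ragweed lung of 72 h, and Ackr1 in none.

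Related chemokines outside the 9 genes were 6 tested genes, none of them called by limma at either time (0 and 2 at an unadjusted p under 0.05). Cxcl17, a chemokine of mucosal epithelium, read 6144 and 6828 (24 h) and 3120 and 3454 (72 h) in PBS lungs, and 6128 and 5984 (24 h) and 4709 and 5398 (72 h) in ragweed lungs. Its PBS samples of 72 h were the lowest, and it differed by 0.62 ± 0.17 at 72 h (adjusted p = 0.214) and by -0.98 ± 0.17 between the PBS groups (adjusted p = 0.0507). Cxcl16, the ligand of Cxcr6, differed by 0.60 ± 0.20 at 72 h (adjusted p = 0.308) and by -0.55 ± 0.20 between the PBS groups (adjusted p = 0.454). The interferon-induced Cxcl11 differed by 0.43 ± 0.64 and -0.25 ± 0.64 at 24 h and 72 h, the fractalkine gene Cx3cl1 by 0.32 ± 0.22 and 0.27 ± 0.22, and the platelet chemokine Ppbp by -0.66 ± 0.43 and -0.01 ± 0.43. Platelet factor Pf4 was above the floor in both ragweed lungs of 24 h (336 and 308) and in 1 PBS lung of 72 h (358), which gives no measured difference at 72 h.

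Macrophages, which make several of these chemokines, had 17 tested markers. At 24 h the complement chain C1qa rose by 0.86 ± 0.11 (adjusted p = 0.0304). At 72 h C1qa rose by 1.46 ± 0.11 (adjusted p = 0.00164), C1qb by 2.45 ± 0.33 (adjusted p = 0.0217) and the perforin-like Mpeg1 by 1.38 ± 0.23 (adjusted p = 0.0498), and none of the 17 fell. For C1qb 1 PBS lung of 72 h (222) was below the floor, so its difference is partly set by the floor. C1qc, the remaining chain, rose by 0.79 ± 0.10 over both times (adjusted p = 0.0182). The summed intensity of the 17 markers lay between 129592 and 145180 in the PBS lungs. It was 87545 and 99754 in the ragweed lungs of 24 h and 129177 and 138432 in those of 72 h, but the 2 lysozymes Lyz1 and Lyz2 make up most of it. Without them the sum over 15 markers went the other way: it was 13921 to 16272 in the PBS lungs, 19907 and 20983 in the ragweed lungs of 24 h, and 28885 and 29354 in those of 72 h. The median log2 difference over the 17 markers was 0.18 at 24 h and 0.43 at 72 h.

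The genes whose log2 intensity ran most like a chemokine's over the 8 samples were read from the same table, with Pearson's r as a description, since the samples share groups and arrays. For Cxcl15 they were P2ry6 (r = 0.979), Gpr137b (0.967) and Tcte2 (0.942) at 165875_at and Rnf41 (0.961), Gpr137b (0.949) and Mob3b (0.943) at 166136_i_at, so Gpr137b, a lysosomal membrane protein, was near both. For Cxcl12 100112_at they were Ogdh, Pafah1b2 and Ctnnd1 (0.974 to 0.975), and 43 of the 6896 probe sets of that table had an r over 0.9. At Cxcl12 105704_at they were Alkbh1, Tcf4 and Ptch1 (0.941 to 0.943). For Cxcl1 95348_at the B cell gene Ms4a1 (0.979), Tagln (0.959) and Gpn1 (0.925) came first, though another Ms4a1 probe set on the same table had an r of 0.452. For 95349_g_at they were Nras (0.955), Alox15 (0.954) and Gsk3a (0.951). Cxcl13 was followed by Ahcy (0.991), Tnc (0.981) and Gatad2a (0.946), and Cxcl14 by Aldh3a1 (0.921), Nsdhl (0.920) and Acvrl1 (0.917).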

How the data were processed

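Microarray intensity was deposited by the authors as 1 linear value per probe set and array for 47 arrays, of which 1 equals another divided by 2.63 and was not used. Sources used here name no software behind these values. Version 2 arrays had a 2% trimmed mean near 800, and first-version PBS arrays did not. First-version A (9977 probe sets shared with version 2 A), B and C tables were scaled to 800 and quantile normalized, as was version 2 A. Version 2 B and C were used as deposited. Scaling came first, then the floor at the 40th percentile, then log2. Control probe sets were left out. limma 3.58.1 (R 4.3.3) was fitted per table with 1 mean per group, 4 residual degrees of freedom and a mean-variance trend, after tests on simulated data. P-values were adjusted by Benjamini-Hochberg over the 25250 probe sets tested on the 3 main tables together, and over the other 3 tables likewise. A difference is written "at least" where the lower group lies wholly at the floor and the other wholly above it. Floored values add no spread, so such p-values may be too small. Symbols came from the platform annotation, updated by gene ID against RefSeq. In lists, 1 probe set stands for a gene, A before B before C, then the brightest, giving 12840 genes. Named were all 9 chemokines, all measured receptors and related chemokines, up to 4 genes per list (called ones by smallest p, otherwise the 2 with the smallest p), and the 3 nearest genes by r. Also named, after their values were seen, were S100a8, S100a9, Mmp9, Elane, Csf3r, Il1a, Il1b, Cd79a, Scgb1a1, the lysozymes and Cyp2f2. So were marker, receptor and cytokine genes below the floor or above it in 1 sample. The members and lists were chosen with earlier results of these data known. Alternatives were quantile normalization everywhere or nowhere, floors at the 20th and 60th percentile, 4 arrays above the floor, no trend, adjustment within tables, the other array version, other PBS samples as reference, a replicate block and leaving out each sample. The use of all first-version A probe sets was added after seeing the data.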

Additional observations from a re-analysis of the deposited data

How the results depend on the processing

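All 838 alternative values of the chemokine differences kept their side of the threshold or gained a call: 791 kept direction and side, 38 changed sign or reached 0 without being called on either side, 9 became called, and no call was lost or reversed. Called were Cxcl15 166136_i_at at 24 h with quantile normalization on all tables (1.91, adjusted p = 0.037), a floor at the 60th percentile (1.87, adjusted p = 0.0377) and 4 arrays above the floor (1.87, adjusted p = 0.0131), and in the same 3 settings over both times (1.24, 1.11 and 1.11). Cxcl12 100112_at was called at 72 h when adjusted within tables (-0.73, adjusted p = 0.0319) or set against PBS of both times (-0.67, adjusted p = 0.0492), and over both times when adjusted within tables (-0.47, adjusted p = 0.0394). The chemokine count was 1 in each of these and 0 in every other setting run. The cause was not tested. Cxcl15 has other probe set names on first-version C, and its values there are given above as results of their own.

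Counts over all probe sets moved by more than 1.5 times as follows. At 24 h (58) there were 101 with 4 arrays above the floor, 91 adjusted within tables and 6 on the other version. At 72 h (133) there were 80 without a trend, 74 on the other version, 236 against PBS of 24 h and 238 against all PBS. Over both times (164) there were 256 with 4 arrays, 98 without a trend, 248 within tables and 10 on the other version. For the difference between the times (9) there were 14 with the 60th percentile floor, 20 with 4 arrays, 4 without a trend, 23 within tables and 0 on the other version. Between the PBS times (71) there were 107 with 4 arrays, 32 without a trend and 41 on the other version. Between the ragweed times (77) there were 42 with the 20th percentile floor, 43 without a trend, 127 within tables, 0 on the other version (which lacks the A array there) and 47 with the replicate block. Leaving out 1 sample gave 22 to 41 at 24 h, 25 to 87 at 72 h, 59 to 76 over both times, 0 to 10 for their difference, 2 to 39 between the PBS times and 2 to 47 between the ragweed times, with 0 chemokines in each; the lone sample is then assumed to vary like the other groups. The sample codes do not pair the samples (deviations of 1a correlated between groups with r from -0.079 to 0.044). With the code as a replicate block, Cxcl15 166136_i_at at 24 h had an adjusted p of 0.0827 and Cxcl12 100112_at at 72 h one of 0.156, and no chemokine was called. Values at the floor limit what can be said of Cxcl2, Cxcl5, Cxcl9, Cxcl10 and Cxcl13.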
